A study of Rattus norvegicus with 8 samples.

Results

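The perichondral zone, the rim of the growth plate where cartilage meets the fibrous sheath around it, was profiled on 2 of the 8 arrays of a study of the rat femur (Rattus norvegicus). The arrays were chosen by their titles, and they were set against the 6 arrays of the reserve, proliferative and hypertrophic zones, as the mean of the 3 zone means. Every zone had 1 array from rats aged 42 days and 1 from rats aged 46 days, and the RNA on each array was a pool from 3 rats. No group carried a treatment or an allele in the labels, and strain, sex and the way in which the zones were separated are not given in the sources used here. The 2 arrays of a zone differ in age as well as in animals. A p-value of the main fit thus measures how pools of unlike age vary, not how rats of 1 age do. Where age is used as a replicate block, an age shift common to all zones is taken out of that spread.

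The perichondrium is a sheath of fibroblast-like cells and collagen bundles that wraps the cartilage of a growing bone. Its cells lay down fibrous matrix such as type I and type III collagen, hold progenitors of cartilage and bone, and exchange Wnt, BMP, TGF-beta, FGF and hedgehog signals with the chondrocytes inside. The reserve zone holds resting chondrocytes, the proliferative zone columns of dividing ones, and the hypertrophic zone enlarged cells that make type X collagen.

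Levels below are quantile-normalized log2(intensity + 16), where intensity is the deposited array signal, and differences are perichondral minus the mean of the other 3 zones in log2 units, with the standard error (SE) of the fit. A difference on this scale understates that of dim genes. As a guide to dim signal, an other-organ level of 9.20 was taken from 36 genes typical of organs other than bone, as the 0.95 quantile of their values. Arrays were on 1 scale, with a trimmed mean deposited intensity of 500.08 to 500.16. Precision is limited by the number of arrays. Among the brightest 0.2 of the probe sets, the 2 perichondral arrays correlated at r = 0.755, and each correlated with the 46-day reserve array at 0.773 or 0.781, across genes, which are not independent replicates. The proliferative and hypertrophic arrays of 46 days stood close, at 0.734. The ratio of 3' to 5' Gapdh signal, a sign of RNA quality, was 3.78 and 4.47 in perichondral arrays and 3.63 to 8.15 in the others, with the highest value in the 42-day reserve array.

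No probe set passed the test for a difference between the perichondral zone and the other 3 zones. Of 31042 probe sets, 0 were called higher and 0 lower (percent called 0 in each direction; limma, adjusted p below 0.05), and 1189 (3.83%) had an unadjusted p below 0.05. With age as a replicate block, 3 probe sets were called higher (0.00966%) and 0 lower. These were Ucma, a secreted cartilage protein, and Omd and Ogn, small leucine-rich repeat proteoglycans, each with an adjusted p of 0.045. All other genes are therefore described by their values on the 8 arrays, and by whether both perichondral arrays lay above, or below, all 6 others.

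Both perichondral arrays lay above all 6 others for 838 probe sets (2.7% of those analysed) and below all 6 for 984 (3.17%), 5.87% together. By the same rule the reserve zone had 1315 above (4.24%) and 1496 below (4.82%), the proliferative zone 1369 (4.41%) and 1096 (3.53%), and the hypertrophic zone 1450 (4.67%) and 1221 (3.93%). The perichondral zone thus had the smallest share of the 4 zones in each direction. With 1 probe set per gene, 398 of 14217 genes (2.8%) lay above and 466 (3.28%) below. The rule rests on both perichondral arrays: with the 42-day array left out 3628 probe sets lay above and 3926 below, and with the 46-day array left out 3421 and 4163, since a single array need only exceed the others. Of the genes above, 184 had a perichondral mean over the other-organ level, with a median difference of 1.11. The other zone with the highest mean was reserve for 98 of these, proliferative for 56 and hypertrophic for 30. Of the genes below, 93 had a mean of the other zones over that level, with a median difference of -0.93. The genes named next are the 15 with the largest difference in each group. Their direction was fixed by the choice, so their values are a description and support no claim about the zone.

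The 15 genes highest above the other arrays had differing roles, and no enrichment was tested. Postn, which encodes periostin, a matrix protein of periosteum and ligament, had the largest difference of the 15. Its level was 11.48 and 10.12 in the 42-day and 46-day perichondral arrays, 5.44 and 8.70 in reserve, 7.92 and 6.80 in proliferative, and 7.31 and 7.08 in hypertrophic arrays. Both perichondral arrays lay over the other-organ level and all 6 others under it, with a gap of 1.42 to the nearest, the 46-day reserve array. The difference was 3.59 (SE 0.91, n = 2 arrays per zone), for which no fold is given because the other arrays read so dim. It was 4.59 within the 42-day arrays and 2.60 within the 46-day arrays. It did not pass the limma test (adjusted p = 0.602 with the age block). The lowest adjusted p of any probe set without the block was 0.99996.

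Sim2 and Npas3 encode transcription factors of the bHLH-PAS family. Sim2 read 10.44 and 9.58 in perichondral arrays, and the other 6 ranged from 4.96 to 8.53, a difference of 3.06 (SE 1.05). Npas3 read 11.90 and 11.10 in perichondral arrays, against 8.92 and 10.05 in reserve, 8.58 and 9.59 in proliferative, and 8.77 and 7.92 in hypertrophic arrays. Its difference was 2.52 (SE 0.57), and the gap to the nearest array was 1.05. Postn, Sim2 and Npas3 were the only named genes of the upper group whose perichondral arrays stood 1 log2 unit or more clear of all others.

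At the cell surface, Sdc2 encodes syndecan 2, a heparan sulphate proteoglycan that holds growth factors. It read 13.77 and 13.60 in perichondral arrays, 13.19 and 12.26 in reserve, 12.37 and 9.58 in proliferative, and 11.68 and 10.21 in hypertrophic arrays, a difference of 2.14 (SE 0.63). The levels stepped down from perichondral to reserve to the remaining zones. This rests on 1 of 3 Sdc2 probe sets: the other 2 had differences of 0.40 and 0.29 and did not lie above all 6. Mageh1, of the MAGE family, had a like order, with 13.30 and 13.97 in perichondral arrays, 12.95 and 12.49 in reserve, 12.47 and 11.05 in proliferative, and 10.82 and 8.59 in hypertrophic arrays. Its difference was 2.24 (SE 0.57). Sdc2, Mageh1 and Dynlt3, of the 15, had means over the other-organ level on both sides of the comparison, and the remaining 12 read below it on average outside the perichondral zone.

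Arxes1, named for its expression in fat cells, read 11.94 and 10.83 in perichondral, 10.64 and 9.43 in reserve, 8.77 and 8.87 in proliferative, and 6.61 and 6.05 in hypertrophic arrays. Its difference was 2.99 (SE 0.60), and it was called in the comparison with the hypertrophic zone alone. Dynlt3, a light chain of the motor dynein, read 12.36 and 11.46 in perichondral arrays and 7.56 to 10.59 in the others, a difference of 2.55 (SE 0.64). Eva1a, a membrane protein linked to autophagy, read 11.10 and 11.25 against 6.67 to 10.54, a difference of 2.56 (SE 0.72). For both genes the nearest other array was the 46-day reserve array.

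The remaining genes of this group were Ecm2, described below with its neighbours, and Ptpmt1, Tpp2, Rab7b, Bivm, Fam210a and Hnrnpll. Ptpmt1 is a mitochondrial phosphatase, Tpp2 a peptidase, Rab7b a small GTPase of vesicle transport and Hnrnpll a regulator of splicing. Their differences ran from 2.26 (Hnrnpll) to 2.55 (Ptpmt1). Ptpmt1, Tpp2 and Bivm lay just inside the rule, with gaps of 0.02, 0.03 and 0.03. Tpp2 met the rule only after normalization. Its deposited intensity was 2490.45 in the 46-day perichondral array and 2502.23 in the 46-day reserve array. The same held for Sdc2, at 12344.6 in the 46-day perichondral array and 12749.2 in the 42-day reserve array. Just outside the rule lay Omd, where the 42-day reserve array read 13.78 and the 42-day perichondral array 13.69. The second Rab7b probe set had a difference of -1.65, the opposite direction. A reserve array was the nearest other array for 13 of the 15 genes.

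**Figure D1:**
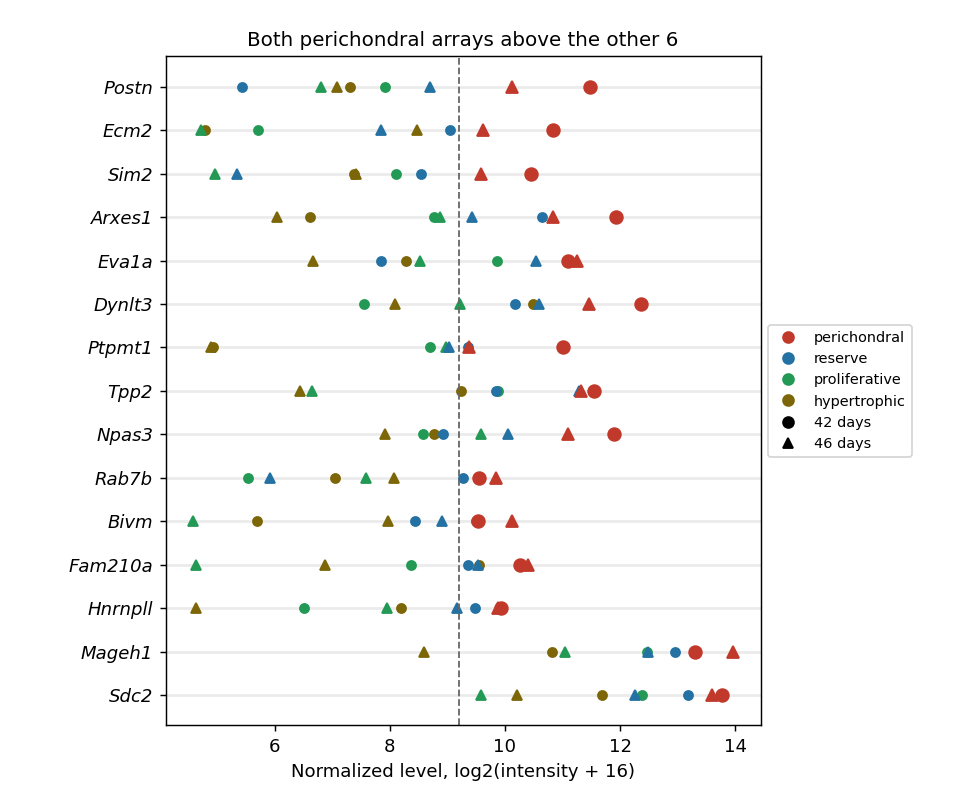
Levels of the 15 genes with the largest difference among those whose 2 perichondral arrays lay above all 6 others, as normalized log2(intensity + 16), with 1 point for each array coloured by zone and shaped by age. The dashed line is the other-organ level of 9.20; for 12 of the 15 genes the mean of the other zones lies under it.

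Neighbouring genes on rat chromosome 17 gave several of the larger differences. Ogn, Omd, Aspn and Ecm2 lie next to each other there in this order among protein-coding genes, with Rpl6-ps6 between Aspn and Ecm2 (RefSeq, GRCr8). They encode osteoglycin, osteomodulin, asporin and extracellular matrix protein 2, all leucine-rich repeat proteins of the matrix, and asporin is known to bind TGF-beta. The neighbourhood was followed up after the values of Ecm2 were seen. The 250 bases before the annotated start of each gene and of Postn are shown because these 4 neighbours and the gene with the largest difference all read high in perichondral arrays. Capitals mark matches to the motifs TATAAA (bound by TBP), TGACTCA (by AP-1), CACCTG (an E-box, by Twist and related factors), GGAATG (by TEAD factors) and ACAATG (by SOX factors), searched on both strands.
Ogn: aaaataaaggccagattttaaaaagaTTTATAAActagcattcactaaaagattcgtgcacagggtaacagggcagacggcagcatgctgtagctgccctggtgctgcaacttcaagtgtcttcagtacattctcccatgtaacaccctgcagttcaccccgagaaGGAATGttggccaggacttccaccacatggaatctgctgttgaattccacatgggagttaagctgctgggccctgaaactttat
Omd: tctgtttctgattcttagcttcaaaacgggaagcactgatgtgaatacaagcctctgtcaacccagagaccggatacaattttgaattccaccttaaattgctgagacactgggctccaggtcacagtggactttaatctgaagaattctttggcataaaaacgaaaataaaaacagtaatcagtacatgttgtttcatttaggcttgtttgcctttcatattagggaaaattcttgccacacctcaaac
Aspn: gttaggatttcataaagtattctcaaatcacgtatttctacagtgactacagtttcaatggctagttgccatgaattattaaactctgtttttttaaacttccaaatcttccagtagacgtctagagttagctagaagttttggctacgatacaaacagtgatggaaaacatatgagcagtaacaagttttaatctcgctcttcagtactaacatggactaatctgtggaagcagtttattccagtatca
Ecm2: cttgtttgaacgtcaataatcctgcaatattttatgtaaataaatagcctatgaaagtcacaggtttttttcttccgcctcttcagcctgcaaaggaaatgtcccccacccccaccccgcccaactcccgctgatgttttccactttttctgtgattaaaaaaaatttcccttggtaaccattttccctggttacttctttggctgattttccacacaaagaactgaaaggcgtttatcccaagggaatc
Postn: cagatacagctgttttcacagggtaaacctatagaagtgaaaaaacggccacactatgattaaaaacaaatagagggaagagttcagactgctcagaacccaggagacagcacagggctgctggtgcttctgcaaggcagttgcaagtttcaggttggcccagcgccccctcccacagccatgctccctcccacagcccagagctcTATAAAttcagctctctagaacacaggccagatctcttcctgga
The stretches lie at chr17:15258996-15259245 (Ogn), chr17:15274871-15275120 (Omd), chr17:15310470-15310719 (Aspn) and chr17:15358856-15359105 (Ecm2), all on the minus strand, and chr2:140677811-140678060 (Postn, plus strand), in RefSeq's GRCr8. Postn held TATAAA starting 44 bases before its start. Ogn held overlapping matches to TATAAA on both strands, 224 and 222 bases before its start, and GGAATG at 84. No match was found in the Omd, Aspn and Ecm2 windows. Among 33469 promoters of the same length, TATAAA was in 12.9%, TGACTCA in 4.05%, CACCTG in 15.9%, GGAATG in 12.1% and ACAATG in 11.1%. A match is a description of letters only, and the absence of one says only that these letters are not in the window.

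Osteoglycin and osteomodulin were graded across the plate. Ogn read 13.29 and 12.54 in perichondral, 12.72 and 11.22 in reserve, 10.96 and 8.60 in proliferative, and 8.83 and 8.0 in hypertrophic arrays, a difference of 2.86 (SE 0.61). Omd read 13.69 and 13.79 in perichondral, 13.78 and 11.12 in reserve, 12.59 and 9.37 in proliferative, and 8.08 and 7.04 in hypertrophic arrays, a difference of 3.41 (SE 0.74). In both, the 42-day reserve array overlapped the perichondral range, and within each of the other 3 zones the 42-day array read higher, as it did for Ogn in the perichondral zone. Both genes were higher than in the hypertrophic zone by the limma test, Omd by 6.18 (adjusted p = 0.022) and Ogn by 4.50 (adjusted p = 0.048), while their differences from reserve were 1.30 and 0.95 and were not called. A second Ogn probe set lay above all 6 others with a difference of 2.15, and the other 2 had differences of 2.19 and 0.16.

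Asporin and Ecm2 differed from this gradient in the zones next in order. Aspn read 10.21 and 9.58 in perichondral arrays, 6.53 and 8.75 in reserve, 9.0 and 8.74 in proliferative, and 8.79 and 7.74 in hypertrophic arrays. Both perichondral arrays lay above all 6 others, which all read under the other-organ level. The difference was 1.64 (SE 0.72), and the second Aspn probe set also lay above all 6, with 2.17. Ecm2 read 10.84 and 9.62 in perichondral arrays, 9.04 and 7.84 in reserve, 5.70 and 4.72 in proliferative, and 4.78 and 8.48 in hypertrophic arrays, a difference of 3.47 (SE 1.03). Neither passed the test. Related proteoglycans encoded elsewhere did not lie outside the other arrays: the difference was 0.76 for Dcn (decorin), 1.79 for Bgn (biglycan), 2.08 for Lum (lumican), 2.32 for Fmod (fibromodulin), 0.68 for Prelp and 2.41 for Chad (chondroadherin). These values moved with single arrays: with 1 left out, the lowest were 0.48 (Dcn) and 1.01 (Lum) without the 46-day hypertrophic array, and 0.94 (Bgn), 1.27 (Fmod) and -0.22 (Prelp) without the 42-day perichondral array. Prelp was also -0.72 with the hypertrophic zone left out.

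**Figure D2:**
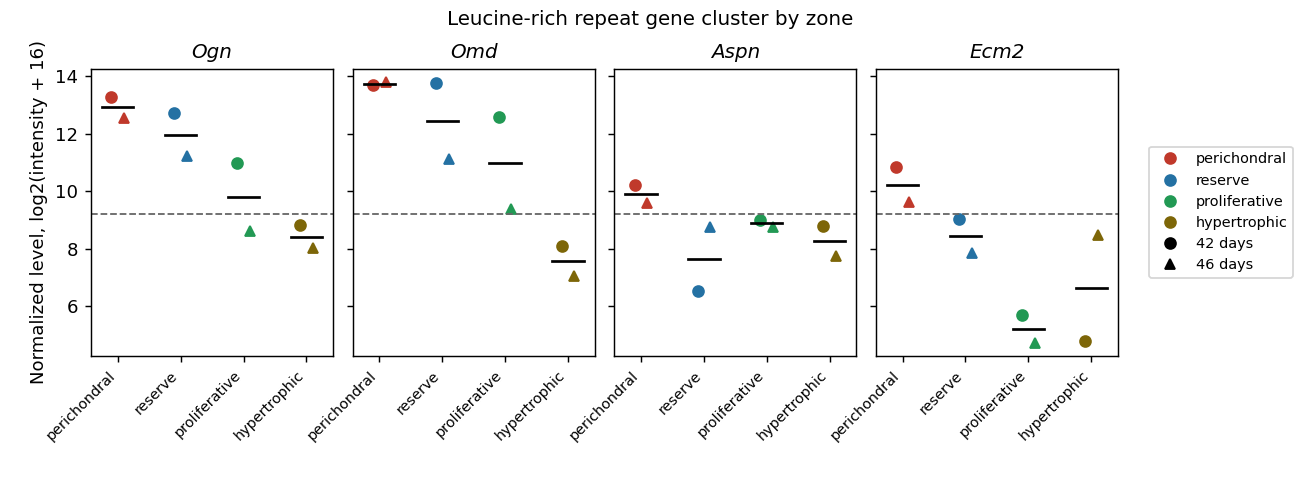
Normalized log2(intensity + 16) of Ogn, Omd, Aspn and Ecm2, the chromosome 17 neighbours, on each of the 8 arrays by zone and age (circles 42 days, triangles 46 days), with a bar at each zone's mean and the other-organ level dashed. Ogn and Omd step down from the perichondral and reserve arrays to the hypertrophic arrays, while both perichondral arrays of Aspn and Ecm2 lie above all 6 others.

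The genes called with the age block or against the hypertrophic zone alone were also high in reserve arrays. Against the hypertrophic zone, 9 probe sets were higher (0.029%) and 0 lower, and against the reserve or the proliferative zone 0 were called in either direction. The named ones were Ucma, Nnt, Omd, Ogn, Arxes1, Pdzrn3 and Fkbp9, and 2 had no gene name. The count was 0 with either perichondral array left out, 5 with the 42-day reserve array left out and 50 with the 42-day hypertrophic array left out. With age as a replicate block, 52 were higher (0.168%) and 3 lower (0.00966%) than in the hypertrophic zone, 13 higher (0.0419%) and 0 lower than in the proliferative zone, and 0 higher and 3 lower (0.00966%) than in the reserve zone. Ucma read 15.80 and 14.99 in perichondral, 15.86 and 14.02 in reserve, 14.19 and 12.90 in proliferative, and 9.16 and 9.39 in hypertrophic arrays. Its difference from the hypertrophic zone was 6.12 (adjusted p = 0.004) and from reserve 0.46. Nnt, a mitochondrial enzyme that makes NADPH, read 11.72 and 11.26 in perichondral, 11.12 and 11.34 in reserve, 9.37 and 7.69 in proliferative, and 5.21 and 5.35 in hypertrophic arrays. For Ucma and Nnt the perichondral and reserve ranges overlapped. The same held for Mgp, an inhibitor of mineralization, for Itgbl1 and for Lats2, a kinase of the Hippo pathway, with differences of 2.88, 3.07 and 2.63. Mgp, Itgbl1 and Lats2 were chosen after their values were seen.

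The fibrous sheath genes were more often high than low, without passing the test. Of 37 listed genes of fibrous perichondrium and periosteum, all were measured, 31 had a positive difference and 6 a negative one, against 7361 and 6856 among all 14217 genes. Their median difference was 0.71, against 0.03 for all genes, and none was called in limma's main comparison. The median was 0.62 within the 42-day and 1.08 within the 46-day arrays, 1.11 with the 46-day perichondral array left out, and 1.08 with the reserve zone left out. By zone it was 0.08 against reserve, 1.15 against proliferative and 0.81 against hypertrophic. On balance the fibrous genes were thus near their reserve level. The log2 of the list's summed signal was 18.02 and 17.06 in perichondral, 18.23 and 17.73 in reserve, 16.19 and 15.35 in proliferative, and 17.90 and 15.01 in hypertrophic arrays. In bulk samples, fewer cells of a type and less RNA per cell cannot be told apart.

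Of the 37 fibrous genes, 3 (8.11%) lay above all 6 others, beside a background of 2.8%, and 0 lay below. They were Postn, Aspn and Col14a1. Col14a1 encodes a collagen that coats fibrils, and read 10.16 and 10.33 in perichondral arrays and 8.22 to 10.09 in the others, a difference of 1.11. The count was 10 with the 46-day perichondral array left out, 8 with the 42-day reserve array left out and 5 with the 42-day perichondral array left out, where 11.7%, 4.53% and 10.9% of all genes lay above. The last count is near that background. Col3a1, the fine fibrillar collagen of soft connective tissue, read 12.08 and 11.24 in perichondral, 11.30 and 9.75 in reserve, 7.81 and 10.10 in proliferative, and 10.28 and 10.55 in hypertrophic arrays, a difference of 1.69 (SE 0.61). Col1a1, the main collagen of bone and fibrous tissue, read 15.41 and 13.03 in perichondral arrays, below both reserve arrays at 15.80 and 15.66. It was 10.12 and 9.24 in proliferative and 16.09 and 11.33 in hypertrophic arrays, so that its difference of 1.18 (SE 0.90) turned to -0.47 with the proliferative zone left out and to -0.03 with the 42-day perichondral array left out. The tendon, ligament and joint surface list had a median of 0.69 over 9 measured genes of 16, but it was 0.12 within the 42-day arrays, and by zone it was -0.24 against reserve, 0.64 against proliferative and -0.18 against hypertrophic. Of these Abi3bp, a collagen-binding matrix protein, lay above all 6, with 11.43 and 11.88 and a gap of 0.43 to the nearest array.

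Several Wnt pathway genes lay above all other arrays. Secreted frizzled-related proteins bind Wnt ligands and keep them from their receptors. Sfrp1 read 11.49 and 11.26 in perichondral, 10.19 and 9.27 in reserve, 9.76 and 9.60 in proliferative, and 8.58 and 8.99 in hypertrophic arrays. Its perichondral arrays stood more than 1 log2 unit over every other array, and the difference was 1.98 within the 42-day and 1.97 within the 46-day arrays. Only 1 of its 3 probe sets lay above all 6 others, while all 3 had positive differences. Sfrp4 read 9.84 and 9.33 against 6.47 to 9.25, a difference of 1.16, and its second probe set had the opposite sign. Tcf7, a transcription factor that carries Wnt signals to DNA, read 12.34 and 11.77 against 8.61 to 11.71, a difference of 1.51. Of 17 measured genes of 20 in this list, 12 differences were positive and 5 negative, with a median of 0.63, and 3 (Sfrp1, Sfrp4, Tcf7) lay above all 6 (background 2.8%). None was called. Axin2, a transcriptional target of the pathway, had a difference of -0.42.

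Among 34 measured genes of 38 in the BMP and TGF-beta list, 4 lay above all 6 others and 0 below, 21 differences were positive and 13 negative, and the median was 0.32. Over all genes, 2.8% lay above and 3.28% below, 7361 differences were positive and 6856 negative, and the median was 0.03. The ligand Tgfb2 read 12.43 and 12.50 in perichondral arrays and 10.16 to 12.11 in the others, a difference of 1.28. Chrdl1, which binds BMP ligands outside the cell, read 9.08 and 8.55 against 7.07 to 8.48, all under the other-organ level. The receptor Acvr1 read 13.67 in both perichondral arrays and 12.14 to 13.16 in the others, a difference of 0.87, and its other 2 probe sets had the opposite sign. The inhibitor Smad7 read 10.70 and 10.66 against 9.52 to 10.65, so that it lay above by 0.01 only. None of the 4 passed the test. The other signalling lists are read against the same shares. In Notch, 1 of 15 lay above (Heyl, 1.40) and in FGF and IGF 1 of 25 lay below (Igfals, -2.56, under the other-organ level on all 8 arrays), while 0 of 10 in hedgehog and PTHrP and 0 of 16 in the retinoid list lay outside.

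Complement genes C1r and C1s, next to each other on chromosome 4, encode the proteases of the first complement component and were also followed up after their values were seen. C1r read 10.51 and 10.48 in perichondral, 10.24 and 9.50 in reserve, 6.68 and 6.95 in proliferative, and 10.27 and 7.88 in hypertrophic arrays. C1s read 10.46 and 10.02 in perichondral, 9.89 and 8.0 in reserve, 7.36 and 6.37 in proliferative, and 9.06 and 7.96 in hypertrophic arrays. Both lay above all 6 others, with gaps of 0.21 and 0.12 and differences of 1.91 (SE 0.67) and 2.13 (SE 0.72). Their inhibitor Serping1 read 8.32 and 7.66 in perichondral arrays, below both reserve arrays (9.32 and 8.57), so that its difference of 1.62 rests on the proliferative and hypertrophic arrays (4.48 to 6.31). C1qa, a subunit made by macrophages, had -0.50 and C3 -0.16, and both directions turned with single arrays left out.

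Genes of marrow and immune cells were low in the perichondral, proliferative and 46-day hypertrophic arrays, beside the reserve and 42-day hypertrophic arrays. Of 24 leukocyte and marrow genes 21 were measured, and 20 of these had a negative difference and 1 a positive one, with a median of -1.16 against 0.03 for all genes. None was called. The median was -2.0 against reserve, -0.07 against proliferative and -0.91 against hypertrophic, so that the proliferative zone had like levels. It was -0.51 with the 46-day perichondral array left out and -0.42 with the reserve zone left out. No member had a perichondral mean over the other-organ level. The log2 of the summed signal over the list was 12.53 and 11.88 in perichondral, 15.50 and 15.49 in reserve, 12.01 and 12.29 in proliferative, and 14.66 and 12.28 in hypertrophic arrays. Cd68, a lysosomal protein of macrophages, read 4.66 and 4.85 in perichondral arrays, 11.13 and 10.35 in reserve, 7.81 and 5.77 in proliferative, and 9.64 and 5.03 in hypertrophic arrays, below all 6 with a difference of -3.53. Tyrobp, an adaptor of myeloid receptors, read 6.29 and 5.49 against 7.18 to 9.77. These 2 of 21 stand beside a background of 3.28%, and the count was 8 with the 42-day and 5 with the 46-day perichondral array left out, where 13.2% and 12.5% of all genes lay below.

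The erythroid list had a median of -0.72 (11 of 14 genes measured) and the osteoclast list one of -0.52 (10 of 14), with none outside the other arrays. The endothelial list had a median of -0.39 (15 of 17), with 0.06 within the 42-day and -0.62 within the 46-day arrays, and Erg and Emcn, a transcription factor and a surface protein of vessels, lay below all 6 at -1.12 and -0.73. Lists of skeletal progenitor and mural cells (-0.20, 19 of 20), skeletal muscle (-0.14, 17 of 18), nerve and Schwann cells (-0.10, 9 of 12) and fat cells (0.17, 11 of 12) had medians near that of all genes. In the first 2 of these, Lepr, Mcam, Myh4 and Tnnc2 lay below all 6. Each of the endothelial, progenitor and muscle lists thus had 2 genes below, beside a share of 3.28% over all genes. By zone the progenitor median was -0.91 against reserve (-0.05 for all genes), -0.40 against proliferative and -0.16 against hypertrophic. The nerve median was -0.66, 0.52 and -0.28 in the same order, and 0.52 within the 42-day and 0.04 within the 46-day arrays. The marrow, erythroid and osteoclast sums were highest in the reserve or the 42-day hypertrophic arrays, and their part in the differences of other genes from those zones was not tested.

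**Figure D3:**
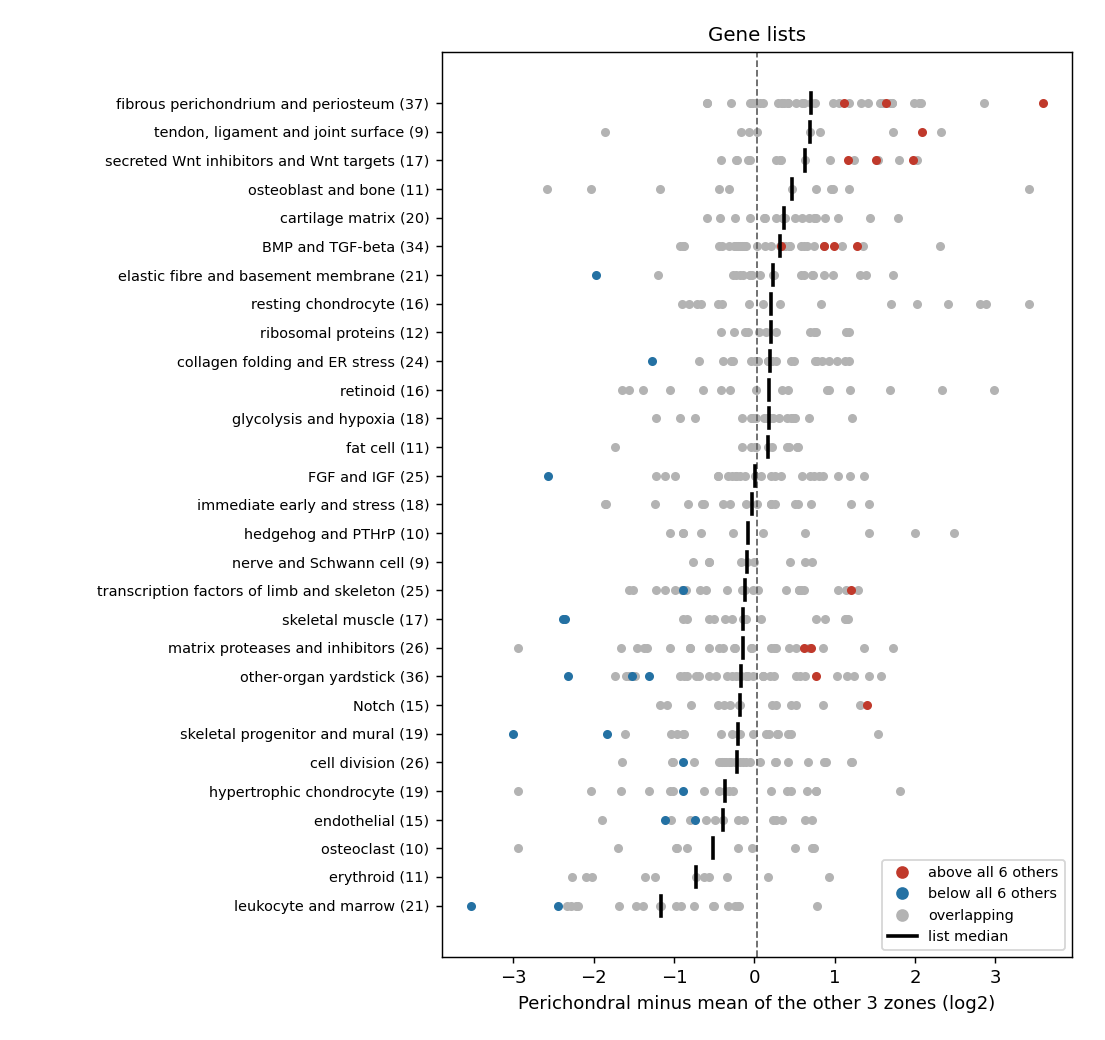
Perichondral minus other-zone difference, in log2 units, of the members of gene lists, with 1 point per gene (red above and blue below all 6 others), a bar at each list's median and the median of all genes dashed. Fibrous perichondrium and periosteum has a median of 0.71 and leukocyte and marrow one of -1.16, against 0.03 for all genes.

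The perichondral arrays held cartilage genes at high levels. Col2a1, the main collagen of cartilage, read 17.80 and 17.58 in perichondral arrays and 15.86 to 17.58 in the others, a difference of 0.59 (SE 1.02) that was 0.36 with the 46-day hypertrophic array left out. Quantile normalization gives the top-ranked probe sets of every array the same few values, so these levels reflect rank. Its other probe sets had differences of 0.64 and 0.16, and the last was -0.67 within the 42-day arrays. Acan, the aggrecan core protein, read 12.73 and 12.08 in perichondral and 14.12 and 12.03 in reserve arrays. Its difference of -0.05 (SE 0.57) turned positive under several alternatives. Over 20 measured cartilage matrix genes of 27 the median was 0.37 and none lay outside the other arrays, as for 16 resting chondrocyte genes of 18 (median 0.21). By zone the cartilage matrix median was -0.07 against reserve, -0.02 against proliferative and 1.20 against hypertrophic. For resting chondrocyte genes it was 0.01, 0.32 and 1.12 in the same order, and 0.78 within the 42-day and 0.65 within the 46-day arrays. Perichondral means lay over the other-organ level for 28 of 37 fibrous genes and 17 of 20 cartilage matrix genes. For all genes the count was 3831 of 14217. These counts cannot test the label of the zone, because the other zones were not counted in the same way. Against reserve, the median difference was 0.08 for fibrous and -0.07 for cartilage matrix genes, so both lists were near their reserve level.

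Markers of later chondrocytes did not share 1 direction. Col10a1, the collagen of hypertrophic cells, read 13.66 and 13.78 in perichondral arrays, above reserve (11.78 and 10.89) and proliferative (12.62 and 10.94) but below hypertrophic arrays (16.93 and 15.26). Mmp13, a collagenase of hypertrophic cells and bone, read 12.08 and 9.78 against 14.75 and 14.73 in reserve, 8.65 and 8.57 in proliferative, and 14.73 and 14.09 in hypertrophic arrays, a difference of -1.66 (SE 0.54). It was -2.77 with the 42-day and -0.49 with the 46-day perichondral array left out. Of 19 measured genes of 22 in the hypertrophic list, 1 lay below all 6: Dlx5, a homeobox factor, at 8.97 and 8.93 against 9.75 to 9.91. In the cell division list 1 of 26 lay below, Mki67, at 12.22 and 12.51 against 12.83 to 14.02, and the median over the list was -0.22. The median over 11 measured osteoblast and bone genes of 15 was 0.47, with none outside the other arrays. This direction was not shared by the parts of the comparison: the median was -0.08 within the 42-day and 0.09 within the 46-day arrays, and -0.77 against reserve, 0.68 against proliferative and -0.26 against hypertrophic.

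Among the remaining lists, matrix proteases and inhibitors had 2 of 26 above all 6 others, Mmp10 (0.70) and Adamts5 (0.62), an enzyme that cuts aggrecan. Transcription factors of limb and skeleton had Hoxd9 above (1.20) and Dlx5 below, of 25. The elastic fibre and basement membrane list had 1 of 21 below (Col18a1, -1.97), and collagen folding and ER stress 1 of 24 below (Creb3l2, -1.27). No measured gene lay outside in glycolysis and hypoxia (18 genes), immediate early and stress (18) or ribosomal proteins (12). For comparison, among the 36 other-organ genes, which have no known role here, 1 lay above (Camk2a, 0.76) and 3 below (Alb, Pomc and Syn1, -2.32, -1.31 and -1.53), beside shares of 2.8% and 3.28% over all genes.

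The genes lowest against the other arrays were mostly dim in the perichondral zone and shared no cartilage matrix role. Ccdc88c, which binds dishevelled in the Wnt pathway, was the only one of the 15 with means over the other-organ level on both sides. It read 8.51 and 10.53 in perichondral arrays, 11.24 and 12.13 in reserve, 11.61 and 12.52 in proliferative, and 13.24 and 12.05 in hypertrophic arrays, a difference of -2.61 (SE 0.56). Its levels were lowest in perichondral and higher in each of the other 3 zones, with a gap of 0.70, and the difference was -1.57 with the 42-day perichondral array left out.

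Of the 15, 3 stood 1 log2 unit or more below all others. Cyp3a23-3a1, a cytochrome P450 known from liver, read 6.44 and 6.85 against 8.13 to 10.01, a difference of -2.62 (SE 0.69). Snx21, a sorting nexin of endosomes, read 6.43 and 7.10 against 8.34 to 10.17, and Tpcn1, an ion channel of endosomes, 7.70 and 7.41 against 8.84 to 9.65. Plrg1, a component of the spliceosome, read 6.27 and 6.67 against 7.66 to 10.03, with a gap of 0.99. Cyp3a23-3a1 has close relatives in its family, so its signal is uncertain where probes cannot separate them. Perichondral levels of these 4 genes lay under the other-organ level in both arrays.

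Lepr, the leptin receptor, had the largest difference of this group and one that rested on 1 array and 1 probe set. It read 4.58 in the 42-day and 8.09 in the 46-day perichondral array and 8.16 to 10.09 in the others, a difference of -3.01 (SE 0.86) that was -5.33 within the 42-day and -0.68 within the 46-day arrays. Of its 7 probe sets, only this one lay below all 6, and 2 had positive differences (0.79 and 1.02). Strip2, Utp14a (ribosomal RNA processing) and Cutc (copper handling) were likewise low mainly at 42 days, with -4.31, -3.70 and -3.47 there and -0.56, -0.41 and -0.56 at 46 days. Utp14a lay just inside the rule, by 0.02. Strip2 and Cutc met the rule only after normalization. Their deposited intensities were 314.44 and 539.97 in the 46-day perichondral array, over 284.05 and 489.63 in the 42-day reserve array. Il2, a growth factor of T cells, was low mainly at 46 days (-3.81, against -0.85 at 42 days).

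The other genes of this group were Abcb4 (a phospholipid transporter, -1.95), Nsun2 (an RNA methyltransferase, -1.91), Pck2 (a mitochondrial enzyme of gluconeogenesis, -1.85), Plekha5 (-1.81) and Hsph1 (a heat shock protein, -1.72). Nsun2 was low mainly at 46 days (-2.83, against -0.99 at 42 days), and Hsph1 was -1.09 with the 46-day perichondral array left out. The second probe set of Plekha5 had the opposite sign, at 0.60, and those of Pck2 and Hsph1 had -0.39 and -0.51. The other zone with the lowest mean was reserve for 7 of the 15, proliferative for 4 and hypertrophic for 4.

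**Figure D4:**
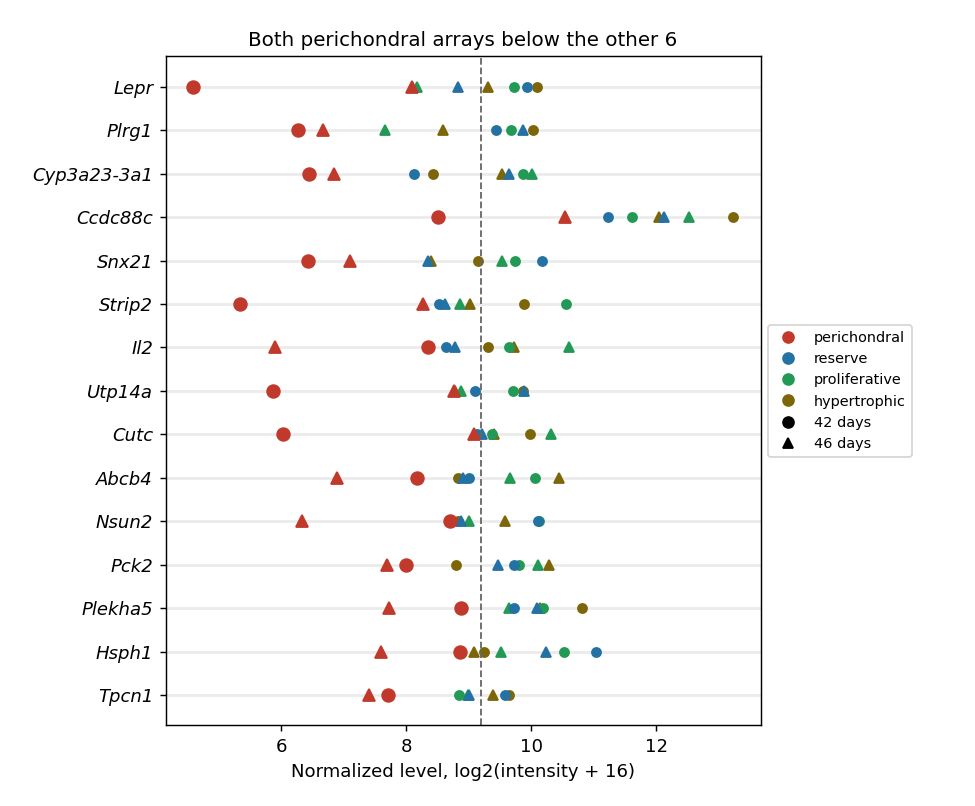
Levels of the 15 genes with the largest difference among those whose 2 perichondral arrays lay below all 6 others, as normalized log2(intensity + 16), with 1 point for each array coloured by zone and shaped by age. For 14 of them the perichondral mean lies under the dashed other-organ level of 9.20, and Ccdc88c is the exception.

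The size of the difference varied with age for many named genes, and the age dependence itself was not shown. A test of whether the perichondral difference depended on age had 2 residual degrees of freedom and called 0 probe sets (limma), with 976 at an unadjusted p below 0.05. Among the genes above, Postn and Ecm2 had larger differences at 42 days (4.59 and 4.33) than at 46 days (2.60 and 2.60). Mageh1 and Sdc2 had larger ones at 46 days (3.26 and 2.92) than at 42 days (1.23 and 1.35), and Eva1a (2.44 and 2.67) and Arxes1 (3.26 and 2.71) had similar ones. The larger difference was at 42 days for 6 of the 15 genes above and for 7 of the 15 below.

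**Figure D5:**
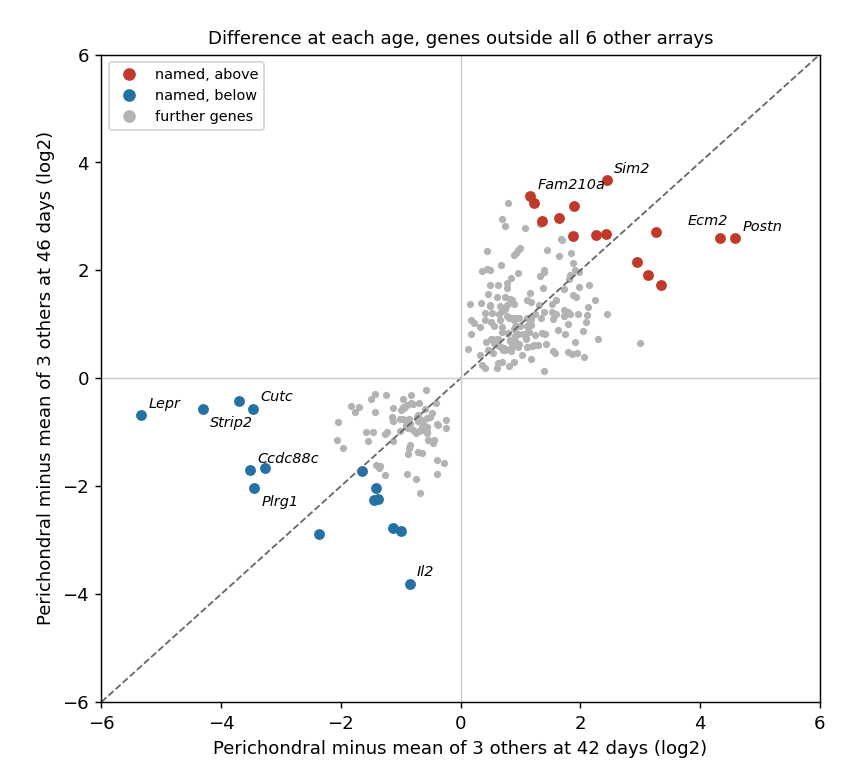
Perichondral minus other-zone difference within the 42-day arrays (horizontal axis) and within the 46-day arrays (vertical axis), in log2 units, for the 30 named genes (coloured) and further genes outside all 6 other arrays (grey), with the diagonal of equal differences. Lepr (-5.33 and -0.68), Strip2 (-4.31 and -0.56) and Il2 (-0.85 and -3.81) lie far from the diagonal.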

How the data were processed

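Gene expression was measured on 8 arrays, and the values analysed are the deposited linear intensities of 31099 probe sets. MAS5, GCOS and RMA are listed, per the submitters' processing notes, with no role stated, and the trimmed means of the deposited intensities were equalized between arrays. From these, 57 control probe sets were left out, log2(intensity + 16) was taken and arrays were quantile-normalized with limma 3.58.1 in R 4.3.3. A linear model with zone means used all 8 arrays, and variances were moderated with a trend (4 residual degrees of freedom, and 12.58 from the prior). The contrast was perichondral minus the mean of the other 3 zone means, with Benjamini-Hochberg adjustment over 31042 probe sets and a threshold of 0.05. Simulated data without differences among the other zones were used to check the mean estimate and the direction of calls only. How many true changes the test finds is not reported here.

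Of the probe sets, 20826 had 1 gene symbol in the platform annotation, 436 had several and 9780 had none, and 20758 symbols were updated by gene identifier. Genes used their brightest probe set, which gave 14217 genes. Named genes had 1 symbol, both perichondral arrays outside all 6 others and a mean on the higher side above the other-organ level, and the 15 largest differences were taken in each direction. List members outside all 6, up to 4 per list and direction, and 8 genes given in any case (7 measured with a single symbol) were added, and genes chosen after their values were seen are marked in the text or are neighbours and relatives of these. The members and the 29 gene lists were chosen with earlier results of these data known. Promoter sequences came from RefSeq (GRCr8) and were matched by symbol; C1s and Sfrp1 are named only.

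Every zone shares the ages 42 and 46 days in the labels, so age served as the replicate block. The 46-day minus 42-day differences correlated between zones with r from 0.0225 to 0.0806 across all probe sets and from 0.058 to 0.31 across the brightest 0.2 of them. Alternatives were other pseudocounts, no or other normalization, dim probe sets left out, another rule for genes with several probe sets, a wider gap, the block, and each array or zone left out. Leaving out the 46-day proliferative and hypertrophic arrays, and the age test, were added after the data were seen.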

Additional observations from a re-analysis of the deposited data

Results flagged for a closer look

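For 2 genes the perichondral difference had opposite signs at the 2 ages. Acan, the aggrecan core protein, had -0.39 within the 42-day arrays and 0.29 within the 46-day arrays. Col10a1, the collagen of hypertrophic chondrocytes, had -0.12 and 1.42. Each value compares 1 perichondral array with 3 others, and the test of the difference between ages (limma, 2 residual degrees of freedom) gave an adjusted p of 1 for both.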

How the results depend on the processing

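No probe set was called in the comparison with the other 3 zones under any array left out (0 to 0 in either direction), while 3 were called higher with age as a replicate block and 3 with the reserve zone left out, where Ucma (3.99) and Itgbl1 (3.79) passed. In the comparison with the mean of the other 3 zones, the replicate block changed no call of a named gene other than Ogn, Omd and Ucma. Against single zones, the block gave 3 lower than reserve, 13 higher than proliferative, and 52 higher and 3 lower than hypertrophic. Which of the latter were named genes is not reported here. With the 46-day proliferative and hypertrophic arrays left out, an alternative added after the data were seen, 1 was lower than reserve, and 4 were higher and 1 lower than hypertrophic. With each array left out in turn, these counts ran from 0 to 1 (lower than reserve), 0 to 5 (higher than proliferative), 0 to 50 (higher than hypertrophic) and 0 to 1 (lower than hypertrophic).

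Probe sets above and below all others numbered 401 and 389 in the brighter part of the probe sets, 43 and 110 with a gap of at least 1, 2043 and 2256 without the reserve zone, 1859 and 1806 without the proliferative zone, 1777 and 1768 without the hypertrophic zone, and 1962 and 1895 without the 46-day proliferative and hypertrophic arrays. With 1 array left out they ran from 1169 to 3628 and from 1275 to 4163. Fewer arrays to exceed raise such a count by construction, and fewer probe sets lower it.

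The fibrous median was 1.08 without the reserve zone and 0.57 to 1.11 with 1 array left out, and its genes above all others numbered 9 without the reserve zone, 1 with a gap of at least 1, and 3 to 10 with 1 array left out. The leukocyte median was -1.41 and -0.81 with pseudocounts of 1 and 64, -1.39 in the brighter part, -0.42 without the reserve zone, -0.91 with the mean of a gene's probe sets, and -1.45 to -0.51 with 1 array left out. Its genes below all others numbered 0 in the brighter part, 0 with the gap, 5 without the proliferative zone, and 2 to 8 with 1 array left out.

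Of 984 values of named genes under alternatives, 961 kept their direction and call, 5 became called and 18 reversed. Acan reversed to 0.055 with values as deposited and 0.053 with arrays centred on their median, to 0.25 and 0.18 without the reserve and the proliferative zone, and ran from -0.40 to 0.29 with 1 array left out. Col1a1 reversed to -0.47 without the proliferative zone and to -0.030 without the 42-day perichondral array (2.38 without the 46-day one), and Col10a1 to -0.28 without the reserve zone. Without the 42-day perichondral array, C1qa reversed to 0.80, C3 to 1.68 and Prelp to -0.22, and without the 46-day one they were -1.79, -2.02 and 1.59. C3 also reversed to 0.33 and 0.098 without the reserve and the proliferative zone and to 0.066 without the 42-day reserve array, and Prelp to -0.72 without the hypertrophic zone. The cause was not tested. Signal over background limits all genes that read under the other-organ level.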
